A study of Mus musculus with 137 samples.

Results

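DNA replication is carried out by a set of protein complexes that act in a fixed order, and 48 genes for them are described here out of 36097 genes summed from the deposited transcript table. The members were chosen by name: the origin recognition complex with its loading factors (9 genes, called licensing), the MCM2-7 ring (6), the factors that turn the ring into a moving helicase (7), polymerase alpha with primase (4), polymerases delta and epsilon (7), the sliding clamp with its loader (6), the single-strand binding protein RPA (3), ribonucleotide reductase (2), the genes for joining Okazaki fragments (2) and the fork protection pair (2). All 48 passed the filter on low counts. The study profiled polyadenylated RNA by SmartSeq2 with oligo-dT priming in 137 single mouse embryos of the B6129F1 cross at the 2-cell stage, each library being 1 embryo. Zygotes were collected at 5 hours after fertilization and kept from 6 hours in KSOM in wet chambers with no oil layer, with 0.1% DMSO (29 libraries, 19 in experiment 1 and 10 in experiment 2), with SR1848 at 10 µM (41 libraries, 17 and 24), or with SR1848 at 10 µM after injection of NR5A2 mRNA at 500 ng/µl (67 libraries, 27 and 40). SR1848 is a small-molecule inhibitor of NR5A2, an orphan nuclear receptor that binds DNA as a monomer, and the series title places NR5A2 at the activation of the zygotic genome. No control-injected group is labelled, so an effect of injection cannot be told apart from one of NR5A2. Parents are not named in the labels, and each p therefore measures only the spread between embryos.

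Before S phase the origin recognition complex, with CDC6 and CDT1, loads the MCM2-7 ring onto DNA, and geminin (Gmnn) holds CDT1 in check so that loading happens once per cycle. CDC7 kinase, CDC45, MCM10 and the GINS complex then convert the loaded ring into the active helicase, primase and polymerase alpha start each strand, polymerases epsilon and delta extend them, and RFC places the PCNA clamp that keeps the polymerases on DNA. A mouse zygote replicates its genome in the first cycle largely with proteins and mRNAs stored in the oocyte, and the 2-cell stage is when most of these stores are cleared while the main wave of embryonic transcription begins.

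Libraries that go against their labels or are low were handled as follows. In experiment 2, libraries 1 to 8 labelled DMSO carried Nr5a2 at 88.3 to 5395 CPM and GFP at 47.4 to 7075 CPM. Such levels are those of injected embryos. Libraries 1 to 8 labelled as injected carried Nr5a2 at 81.6 to 155 CPM and GFP at 0 to 0.452 CPM, as DMSO embryos did. CPM are counts scaled by the library's total. For Nr5a2 and GFP that total holds all entries of the count table, and for other genes the gene counts only. GFP entries are in the count table, although the labels do not mention GFP. These 16 libraries and 7 low ones were left out of the fits, which leaves 18 DMSO, 40 SR1848 and 56 injected embryos with totals of 3383460 to 9317720 counts, and results with them are given beside. Of the 18 DMSO embryos 16 are from experiment 1, so the comparison with SR1848 rests mainly on that experiment. Among the 56 injected embryos 42 had GFP of at least 100 CPM and 14 less. In the 18, 40 and 56 embryos the share of counts from 50 maternal transcripts was 1.59%, 5.72% and 3.91% (medians), that of 13 mitochondrial mRNAs 5.99%, 7.43% and 10.1%, and the genes detected 16481, 14840 and 16352. Of the 2-cell markers 16 of 18 matched a gene and took a median of 0.0312%, 0.0331% and 0.108% of counts. The last value joins unlike embryos. It was 0.0128% in the 42 with GFP of at least 100 CPM and 0.275% in the 14 with less. By experiment, injected embryos had 0.224% in experiment 1 and 0.0128% in experiment 2. Within experiment 1 the GFP sets were alike, at 0.222% with at least 100 CPM and 0.226% with less. Within experiment 2 they were at 0.0108% and 0.363%. The amount of RNA per embryo was not measured, so every level is relative to the library. Marker genes of other cells were measured as well. Summed over 12 cumulus markers the range was 38.5 to 143 CPM in DMSO, 1.39 to 210 CPM in SR1848 and 4.23 to 61.2 CPM in injected embryos, where Amhr2 alone made 36.9 to 141 CPM of the DMSO level and Fshr was at 0 in DMSO and Amh in SR1848 and injected embryos. Over 8 sperm markers it was 13.4 to 44.7 CPM, 0.842 to 21.5 CPM and 0 to 19.5 CPM, with Tnp1 at 0 in DMSO and SR1848, and over 5 blood markers 2.74 to 40.7 CPM, 5.6 to 154 CPM and 0 to 425 CPM, from the alpha globins, with Hbb-bs at 0 throughout; their part in the results was not tested.

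The promoter windows of 3 members are shown because Gins3 and Rpa2 had the largest falls under SR1848 and Orc5 the largest rise. They are from RefSeq (GRCm38.p6), 250 bases before to 50 bases after the start of transcription, read 5′ to 3′ on the gene's strand. Capitals mark exact matches on either strand to the core of the NR5A2 site (AAGGTCA or AAGGCCA) or to an E2F site (TTTCGCGC, TTTGGCGC, TTTCCCGC or TTTGCCGC).
Gins3: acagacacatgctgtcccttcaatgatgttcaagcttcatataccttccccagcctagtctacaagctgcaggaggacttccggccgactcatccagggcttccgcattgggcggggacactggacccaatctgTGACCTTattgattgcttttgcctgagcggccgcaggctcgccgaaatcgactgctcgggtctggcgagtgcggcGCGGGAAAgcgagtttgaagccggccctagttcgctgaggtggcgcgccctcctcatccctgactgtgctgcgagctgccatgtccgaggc
Rpa2: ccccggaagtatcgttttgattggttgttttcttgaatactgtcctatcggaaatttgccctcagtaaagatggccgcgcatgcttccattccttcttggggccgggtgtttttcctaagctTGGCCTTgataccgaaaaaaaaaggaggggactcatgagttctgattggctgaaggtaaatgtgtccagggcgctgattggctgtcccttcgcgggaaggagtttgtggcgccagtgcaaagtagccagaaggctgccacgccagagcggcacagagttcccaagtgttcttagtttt
Orc5: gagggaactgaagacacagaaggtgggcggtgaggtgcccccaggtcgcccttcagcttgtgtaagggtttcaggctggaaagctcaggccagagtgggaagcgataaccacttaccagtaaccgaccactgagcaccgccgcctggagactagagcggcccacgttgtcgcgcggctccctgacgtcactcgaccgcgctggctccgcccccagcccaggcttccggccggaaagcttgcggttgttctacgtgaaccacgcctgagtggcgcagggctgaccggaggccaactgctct
Gins3 (chr8:95633309-95633608, plus strand) held the reverse complement of AAGGTCA at base 135 of its window and that of TTTCCCGC at base 210. Rpa2 (chr4:132768110-132768409, plus strand) held the reverse complement of AAGGCCA at base 123, and with its 2 flanking bases it matched the longer form TCAAGGCCA, which contains the shorter one. Orc5 (chr5:22550289-22550588, minus strand) held no match. Over the 49 promoter windows found for 39 of the members, 10.2% had the 7-base NR5A2 core against 10.6% of all 32851 windows in the table, in Rpa2, Gins3, Pole2, Fen1 and Pola1. The longer 9-base form (TCAAGGTCA or TCAAGGCCA) was in 2.04% of member windows against 1.01% of all. E2F sites were in 34.7% of member windows, those of 16 members, against 2.26% of all, and the E2F forms can overlap each other on opposite strands, as they do in Mcm6. Members with an E2F match include some that fell under SR1848 (Mcm3, Mcm6, Orc1, Cdc6, Gins3) and some that rose (Pold3, Pola1). A match is a description of the letters, not a bound site.

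SR1848 against DMSO asks which replication mRNAs differ when NR5A2 is inhibited. Most of the helicase, primase and nucleotide supply genes were lower in SR1848 embryos, while Orc5, Pold3 and a few subunits of the replicative polymerases and of the clamp loader were higher. Of the 48 members 27 were lower, 13 higher and 8 neither (edgeR quasi-likelihood test, Benjamini-Hochberg adjusted p under 0.05 over 15107 genes). Lower members were 56.2% of the set against 39% of all genes tested, and higher ones 27.1% against 37.7%. The median member changed by -1.04 on the log2 scale, against -0.02 for all genes. The split depends on the scaling: it was 6 higher and 33 lower by relative log expression (28.8% and 47% of all genes), which moves the median of all genes to -0.55, and 1 higher and 46 lower when libraries were scaled to the 50 maternal transcripts (8.12% and 69.9% of all genes), which moves it to -1.92. Under all 5 scalings tried, the same 27 members were lower and Orc5 was higher. How many of all genes were lower or higher under all 5 was not counted, so this is not set apart from genes at large. The maternal list itself was higher in SR1848 for 44 of 50 genes and lower for 5, and its part in these results was not tested. With all libraries as labelled the counts were 9 higher and 25 lower (33.1% and 36% of all genes).

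**Figure D1:**
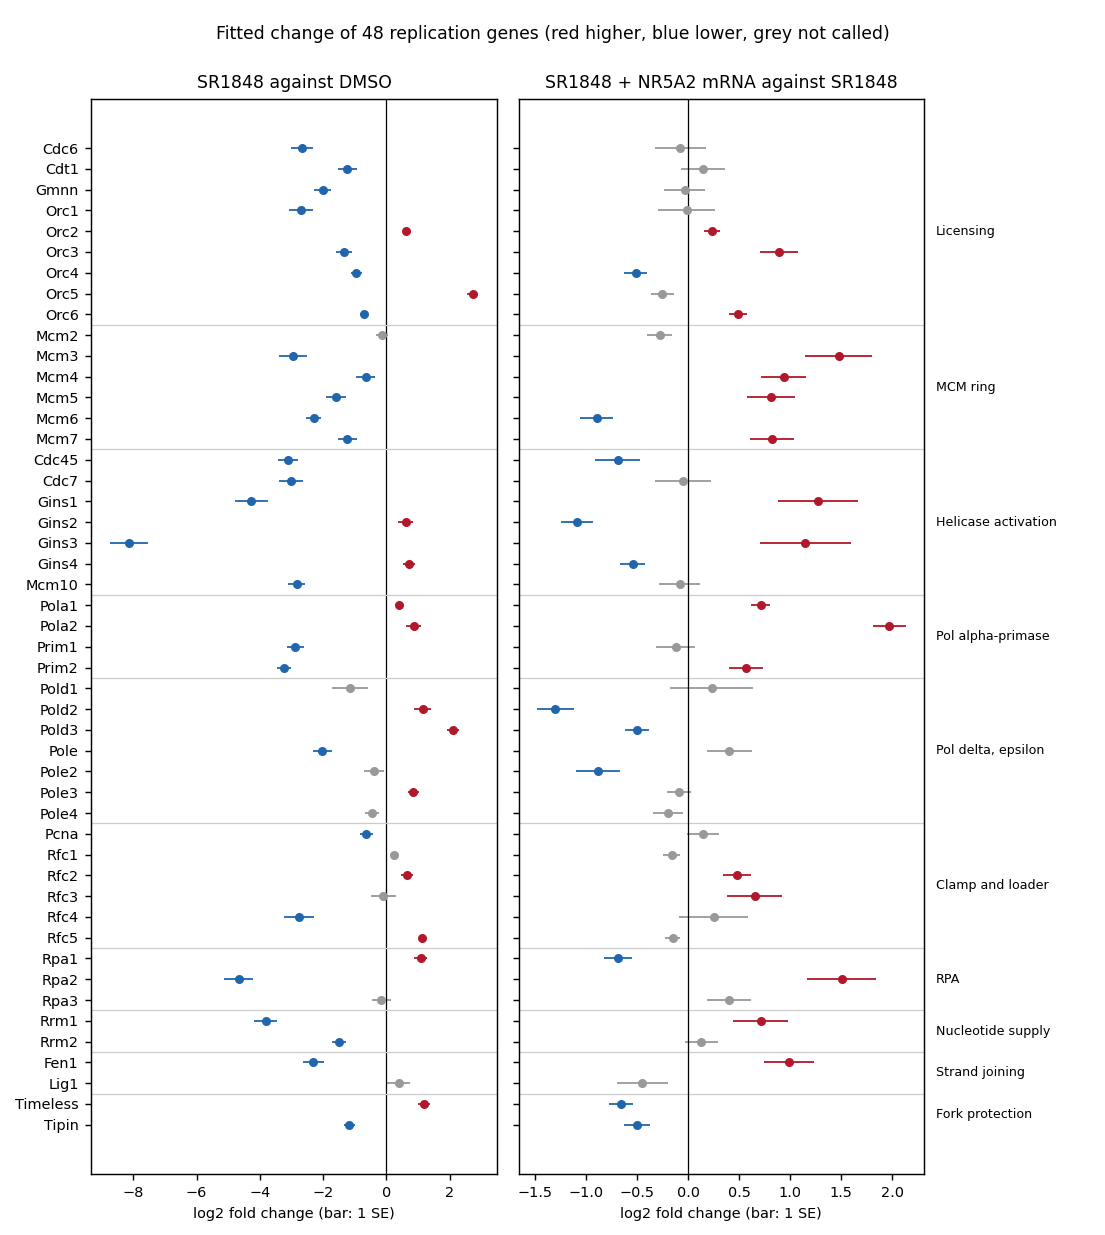
Fitted log2 fold change with its standard error for each of the 48 genes, grouped by role, in SR1848 against DMSO (left) and in SR1848 with NR5A2 mRNA against SR1848 (right); red and blue points are called higher and lower, grey points are not called. Gins3 lies furthest to the left at -8.14 and Orc5 furthest to the right at 2.72 in the left panel, and Pola2 at 1.97 leads the right panel.

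Injected embryos were next set against embryos with SR1848 alone, to see which of these mRNAs differ once NR5A2 mRNA is supplied in the inhibitor. Of the 6 MCM ring genes Mcm3, Mcm4, Mcm5 and Mcm7 were higher in injected embryos, as were Rpa2, Gins1, Gins3, Fen1 and, by the largest fold, Pola2, while Pold2, Gins2, Mcm6, Cdc45 and both fork protection genes were lower. Of the 48 members 17 were higher and 11 lower, which is 35.4% and 22.9% against 29.8% and 14.8% of all genes tested, with a median of 0.06 against 0.12 for all genes. The split turns with the embryos used. Without the 14 injected embryos under 100 CPM of GFP, whose Nr5a2 mRNA had a median of 17.4 CPM against 13.2 CPM in SR1848, 10 members were higher and 18 lower (24.4% and 18.1% of all genes) and the median was -0.16. Mcm4, Mcm5, Mcm7, Gins1, Gins3, Rrm1 and Rfc3 then no longer passed the test as higher. In experiment 2 alone 10 were higher and 13 lower (23.1% and 11.9% of all genes), and Mcm4, Mcm5, Mcm7, Gins3, Prim2, Rpa2, Rrm1 and Rfc3, together with the fall of Pold3, did not pass. In experiment 1 alone Orc2, Gins1, Gins3, Rfc2, Rfc3, Rrm1 and the falls of Cdc45, Orc4, Pole2 and Tipin did not pass. The split also depends on the scaling: 33 members were higher and 2 lower when scaled to the maternal list (63.3% and 2.18% of all genes), and 3 higher and 26 lower when scaled to the mitochondrial mRNAs (16.8% and 46% of all genes), of which 12 of 13 were themselves higher in injected embryos. By total count the split was 16 and 15 (29% and 16.4% of all genes). Pola2, Rpa2 and Mcm3 were higher and Pold2 and Gins2 lower under all 5 scalings, a count not made for all genes. The alpha globins Hba-a2 and Hba-a1 were higher in injected embryos as well, by 2.55 and 2.28 on the log2 scale, and the part of these shifts in the results was not tested. Both comparisons use the same 40 SR1848 embryos, so opposite signs in them are not independent.

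**Figure D2:**
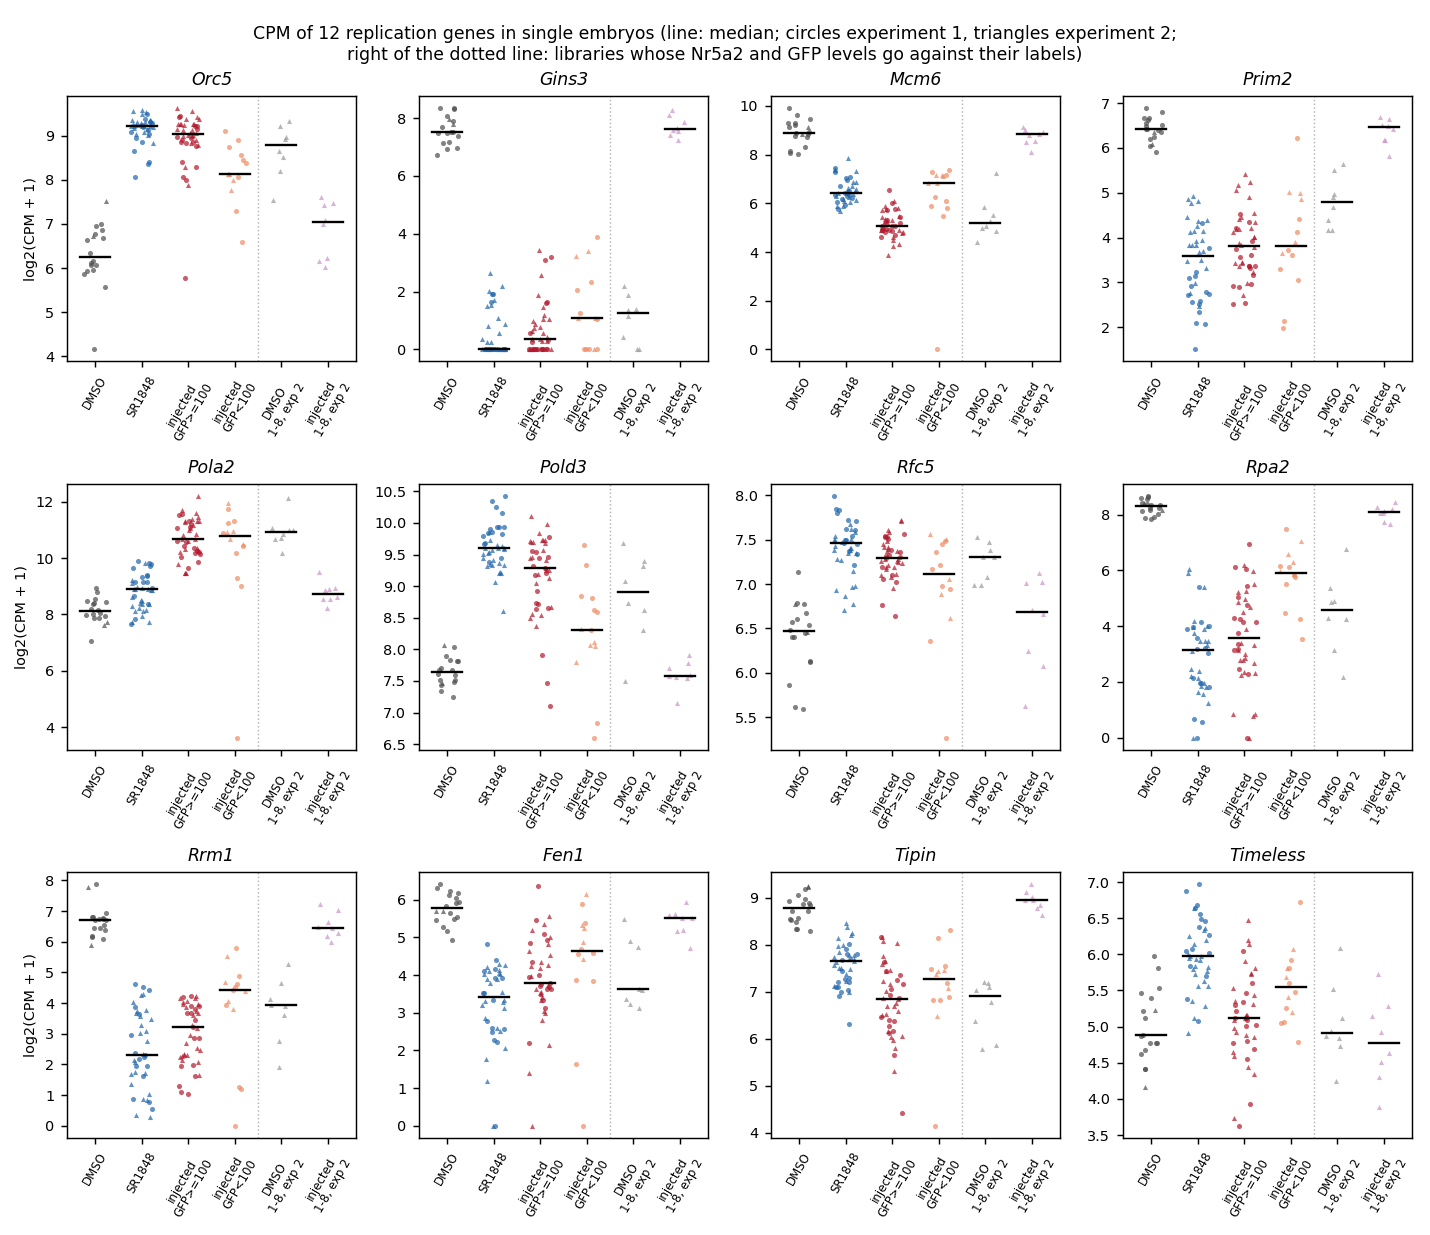
CPM of 12 members in single embryos on a log2(CPM + 1) axis, by set of libraries; lines are medians, circles are experiment 1 and triangles experiment 2, and the 16 libraries against their labels stand to the right of the dotted line. Gins3 lies at 105 to 328 CPM in DMSO and at 0 to 5.26 CPM in SR1848, and the libraries 1 to 8 labelled as injected lie at 151 to 308 CPM.

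Licensing genes were mostly lower in SR1848 embryos, 7 of 9 against 39% of all genes tested, with Orc5 the main exception. Orc5, a subunit of the origin recognition complex (chromosome 5, 22486485 to 22550429, minus strand), was at 16.9, 75.3 and 183 CPM in DMSO embryos (lowest, median and highest), at 265, 597 and 761 CPM in SR1848 and at 54.1, 485 and 792 CPM in injected embryos. Every SR1848 embryo was above every DMSO embryo. Orc5 rose by 2.72 on the log2 scale (SE 0.18, edgeR adjusted p 8.99e-27) and did not pass the test between injected and SR1848 embryos (-0.25, SE 0.11, adjusted p 0.0573). Orc6, the smallest subunit, was at 157, 298 and 463 CPM in DMSO, 90.1, 171 and 305 CPM in SR1848 and 27.7, 236 and 485 CPM in injected embryos. It fell in SR1848 (-0.70, SE 0.12, edgeR adjusted p 9.77e-08) and rose in injected embryos (0.49, SE 0.09, adjusted p 8.76e-07), where 49 of 56 embryos lay above the SR1848 median; scaled to mitochondrial mRNAs the second value was -0.13. Orc1, which with CDC6 makes the loading ATPase, fell by 2.71 and Cdc6 by 2.66, Gmnn fell by 2.02, Orc3 by 1.33, Cdt1 by 1.24 and Orc4 by 0.95, and Orc2 rose by 0.63. The Orc2 value turned to -1.30 when scaled to the maternal list. Orc3 is summed over its transcripts, and a non-coding one held most of its counts in DMSO embryos. The fall of Orc3 in SR1848 lies in that transcript, while other Orc3 transcripts described below had higher medians in SR1848. In injected against SR1848 embryos Orc3 rose by 0.89 and Orc2 by 0.24 (the latter -0.36 when scaled to mitochondrial mRNAs), Orc4 fell by 0.52, and Orc1 (-0.01), Cdc6 (-0.08), Cdt1 (0.15) and Gmnn (-0.03) did not pass the test. The licensing sum per embryo was 1527, 1669 and 2217 CPM in DMSO and 724, 1418 and 1710 CPM in SR1848, and the groups overlapped.

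The MCM ring genes, which encode the hexameric motor of the helicase, fell in SR1848 for 5 of 6, against 39% of all genes tested. Mcm6 (chromosome 1, 128331590 to 128359664, minus strand) was at 263, 478 and 974 CPM in DMSO, 50.9, 85.5 and 233 CPM in SR1848 and 0, 39.0 and 165 CPM in injected embryos. No SR1848 embryo reached the lowest DMSO embryo, and 35 of 56 injected embryos were below the lowest SR1848 embryo. The change was -2.30 (SE 0.23, edgeR adjusted p 1.55e-16) in SR1848 and a further -0.90 (SE 0.16, adjusted p 2.34e-06) in injected embryos. The other ring genes that fell in SR1848 went the other way in injected embryos: Mcm3 by -2.95 and then 1.48, Mcm5 by -1.59 and 0.81, Mcm7 by -1.23 and 0.82, and Mcm4 by -0.65 and 0.94. In the 42 injected embryos with GFP of 100 CPM or more the second values were 0.82 for Mcm3, 0.45 for Mcm5, 0.36 for Mcm7 and 0.19 for Mcm4, of which Mcm3 alone passed the test. Mcm2 passed neither test (-0.14 and -0.28). For Mcm3, 36 of 40 SR1848 embryos were below the lowest DMSO embryo, and 12 of 56 injected embryos exceeded the highest SR1848 embryo.

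Helicase activation held the member that fell furthest. Gins3, a GINS subunit (chromosome 8, 95633453 to 95645060, plus strand), was at 105, 181 and 328 CPM in DMSO, 0, 0 and 5.26 CPM in SR1848 and 0, 0.324 and 13.7 CPM in injected embryos. Any count at all was found in 16 of 40 SR1848 and 34 of 56 injected embryos. The fitted change was -8.14 in SR1848 (SE 0.60, edgeR adjusted p 2.56e-24) and 1.15 in injected embryos (SE 0.44, adjusted p 0.026); at levels this near 0 the sizes depend on the prior count. Gins1 followed the same course (-4.27 and 1.28), from a DMSO median of 29.4 CPM to 0.828 and 1.76 CPM. Gins2 and Gins4 did not: Gins2 was at 11.0, 24.6 and 45.7 CPM in DMSO, 10.7, 37.0 and 80.5 CPM in SR1848 and 0, 17.5 and 47.8 CPM in injected embryos, overlapping in all groups. Gins2 rose in SR1848 (0.60, SE 0.23, edgeR adjusted p 0.014) and fell in injected embryos (-1.09, SE 0.16, adjusted p 4.65e-09). The rise of Gins2 was absent in experiment 2 alone (-0.02) and turned to -1.38 when scaled to the maternal list, and 67.3% of its exon bases are shared with Gse1 on the opposite strand, whose reads this unstranded protocol cannot set apart. Gins4 changed by 0.71 and -0.55. Cdc45 fell by 3.12, from 284 to 638 CPM in DMSO down to 3.11 to 106 CPM in SR1848, and by a further 0.69 in injected embryos; Cdc7 fell by 3.01 and Mcm10 by 2.83, and neither passed the test in injected embryos (-0.05 and -0.08).

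Polymerase alpha and primase, 1 enzyme of 4 subunits, split by subunit. Both primase subunits fell in SR1848, Prim1 (catalytic) by 2.88 and Prim2 (regulatory) by 3.24, and both polymerase subunits rose, Pola1 (catalytic) by 0.41 and Pola2 (regulatory) by 0.85. Prim2 (chromosome 1, 33453810 to 33669795, minus strand) was at 59.6, 84.8 and 118 CPM in DMSO, 1.84, 11.1 and 29.5 CPM in SR1848 and 2.96, 13.0 and 74.1 CPM in injected embryos, so that no SR1848 embryo reached a DMSO embryo. Its changes had SE 0.23 and edgeR adjusted p 4.9e-25 in SR1848, and 0.57 with SE 0.16 and adjusted p 0.00261 in injected embryos. The higher Prim2 total of injected embryos lies in a retained-intron transcript, while the coding one had a lower median than in SR1848. Pola2 (chromosome 19, 5940542 to 5964202, minus strand) was at 131, 275 and 483 CPM in DMSO, 199, 471 and 950 CPM in SR1848 and 11.4, 1640 and 4724 CPM in injected embryos. In 47 of 56 injected embryos Pola2 was above the highest SR1848 embryo, and 1 injected embryo of experiment 1, with 8325 genes detected, gave the low value of 11.4 CPM. The rise over SR1848 was 1.97 (SE 0.16, edgeR adjusted p 1.27e-19), and that of SR1848 over DMSO 0.85 (SE 0.22, adjusted p 0.000371). The smaller of these rests on the scaling and on the libraries: it was -1.05 when scaled to the maternal list and -0.71 with all libraries as labelled, since libraries 1 to 8 labelled DMSO carried Pola2 at 1154 to 4530 CPM. Pola1 rose by a further 0.71 in injected embryos, while Prim1 did not pass the test (-0.12). The higher Pola1 total of injected embryos lay in a processed transcript, and the median of the coding one was not higher than in SR1848. The rise of Pola1 in SR1848 became -0.14 by relative log expression.

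Of the polymerase delta and epsilon genes 3 of 7 rose in SR1848 and 1 fell, where 37.7% of all genes tested were higher and 39% lower. Pold3, an accessory subunit of polymerase delta, was at 151, 199 and 266 CPM in DMSO, 387, 775 and 1376 CPM in SR1848 and 96.4, 578 and 1108 CPM in injected embryos, with every SR1848 embryo above every DMSO embryo. Pold3 rose by 2.11 (SE 0.19, edgeR adjusted p 5.99e-19), a rise called under 4 of the 5 scalings and at its lowest 0.16. In injected against SR1848 embryos Pold3 fell by 0.50 (SE 0.12, edgeR adjusted p 0.000269). That fall was -0.98 in experiment 1 alone and -0.17 in experiment 2 alone, where it did not pass (edgeR adjusted p 0.37). Pold2, also accessory to polymerase delta, was at 4.15, 13.0 and 33.9 CPM in DMSO, 10.7, 29.9 and 80.7 CPM in SR1848 and 0, 13.3 and 27.5 CPM in injected embryos, where 22 of 56 lay below every SR1848 embryo. Pold2 changed by 1.14 (SE 0.27, edgeR adjusted p 7.86e-05) and then by -1.30 (SE 0.18, adjusted p 1.3e-09); the first was -0.89 when scaled to the maternal list. Pole, the catalytic subunit of polymerase epsilon, fell by 2.03 and its histone-fold subunit Pole3 rose by 0.84 (Pole3 -1.06 when scaled to the maternal list). Pold1, the catalytic subunit of delta, was at or below 21.4 CPM in every group and did not pass (-1.14, adjusted p 0.0602), and neither did Pole2 (-0.40) or Pole4 (-0.45). In injected embryos Pole2 fell by 0.88, and Pole (0.40), Pold1 (0.23), Pole3 (-0.09) and Pole4 (-0.20) did not pass.

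The clamp and its loader had no common direction. Rfc5, a loader subunit, was at 47.2, 87.5 and 140 CPM in DMSO, 103, 175 and 254 CPM in SR1848 and 37.5, 155 and 209 CPM in injected embryos, with 34 of 40 SR1848 embryos above the highest DMSO embryo. Rfc5 rose by 1.12 (SE 0.11, edgeR adjusted p 2.18e-17) and did not pass in injected embryos (-0.15, SE 0.07, adjusted p 0.0748). Rfc2 was at 7.45, 17.9 and 25.1 CPM, then 10.0, 23.3 and 45.7 CPM, then 0.385, 31.0 and 71.7 CPM, and rose in both steps (0.65, SE 0.19, edgeR adjusted p 0.00163, and 0.48, SE 0.13, adjusted p 0.00168). Each rise of Rfc2 turns under 1 scaling, to -1.32 on the maternal list and to -0.15 on the mitochondrial mRNAs, and that of Rfc5 to -0.82 on the maternal list. Rfc4 fell by 2.76, from medians of 18.2 to 2.56 CPM, and Pcna, the clamp itself, fell by 0.63 in SR1848, while Rfc1 (0.24) and Rfc3 (-0.10) did not pass; in injected embryos Rfc3 rose by 0.65 and Rfc1 (-0.16), Rfc4 (0.25) and Pcna (0.15) did not pass. The protocol keeps no strand, and 15.1% of exon bases of Rfc2, 12.7% of Rfc4 and 10.7% of Rfc5 are shared with Lat2, Eif4a2 and Wsb2 on the opposite strand.

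RPA, which coats single-stranded DNA at the fork, had 1 subunit that fell in SR1848, 1 that rose and 1 that did neither. Rpa2 (chromosome 4, 132768332 to 132778752, plus strand) was at 227, 314 and 409 CPM in DMSO, 0, 7.81 and 65.1 CPM in SR1848 and 0, 18.4 and 179 CPM in injected embryos. Each SR1848 embryo and each injected embryo was below the lowest DMSO embryo. Rpa2 fell by 4.67 (SE 0.46, edgeR adjusted p 7.84e-17) and rose by 1.51 in injected embryos (SE 0.34, adjusted p 0.000113). Rpa1, the large subunit, was at 7.30, 31.7 and 63.1 CPM in DMSO, 22.7, 59.1 and 114 CPM in SR1848 and 3.27, 33.5 and 102 CPM in injected embryos. It rose by 1.08 (SE 0.21, edgeR adjusted p 2.43e-06), with a value of -0.85 on the maternal list, and fell by 0.69 in injected embryos (SE 0.14, adjusted p 1.82e-05). Rpa3 passed neither test (-0.16 and 0.40).

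Nucleotide supply fell in SR1848 in both subunits of ribonucleotide reductase, the enzyme that makes deoxyribonucleotides. Rrm1 (chromosome 7, 102441695 to 102469771, plus strand) was at 58.6, 104 and 235 CPM in DMSO, 0.212, 3.97 and 23.6 CPM in SR1848 and 0, 11.5 and 54.1 CPM in injected embryos, and the DMSO range lay above that of both other groups. Rrm1 fell by 3.82 (SE 0.36, edgeR adjusted p 9.33e-18) and rose by 0.71 in injected embryos (SE 0.27, adjusted p 0.0233); with the low libraries kept the second value was -0.45. Rrm2 fell by 1.49, from medians of 387 to 122 CPM, and did not pass in injected embryos (0.13). Fen1, the flap nuclease of Okazaki fragments, was at 29.6, 53.6 and 84.5 CPM in DMSO, 0, 9.79 and 27.6 CPM in SR1848 and 0, 15.0 and 81.7 CPM in injected embryos. Fen1 fell by 2.31 (SE 0.33, edgeR adjusted p 6.16e-10), with no SR1848 embryo in the DMSO range, and rose by 0.99 in injected embryos (SE 0.24, adjusted p 0.000442); 78.8% of its exon bases are shared with the antisense gene Gm10143. Lig1, the ligase, was at or below 19.9 CPM in the 3 groups and passed neither test (0.39 and -0.45).

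The fork protection partners Timeless and Tipin, which form 1 complex, moved apart in SR1848 embryos. Tipin was at 314, 441 and 611 CPM in DMSO, 78.9, 199 and 353 CPM in SR1848 and 16.7, 120 and 318 CPM in injected embryos, with 38 of 40 SR1848 embryos below the lowest DMSO embryo. Tipin fell by 1.17 (SE 0.18, edgeR adjusted p 5.22e-09) and again by 0.50 in injected embryos (SE 0.13, adjusted p 0.000566). Timeless was at 16.9, 28.4 and 62.1 CPM in DMSO, 29.1, 62.2 and 125 CPM in SR1848 and 11.4, 35.2 and 105 CPM in injected embryos. Timeless rose by 1.18 (SE 0.18, edgeR adjusted p 1e-08) and fell by 0.66 in injected embryos (SE 0.12, adjusted p 2.62e-06). Scaled to the maternal list the rise of Timeless was -0.75 and the second fall of Tipin 0.03.

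**Figure D3:**
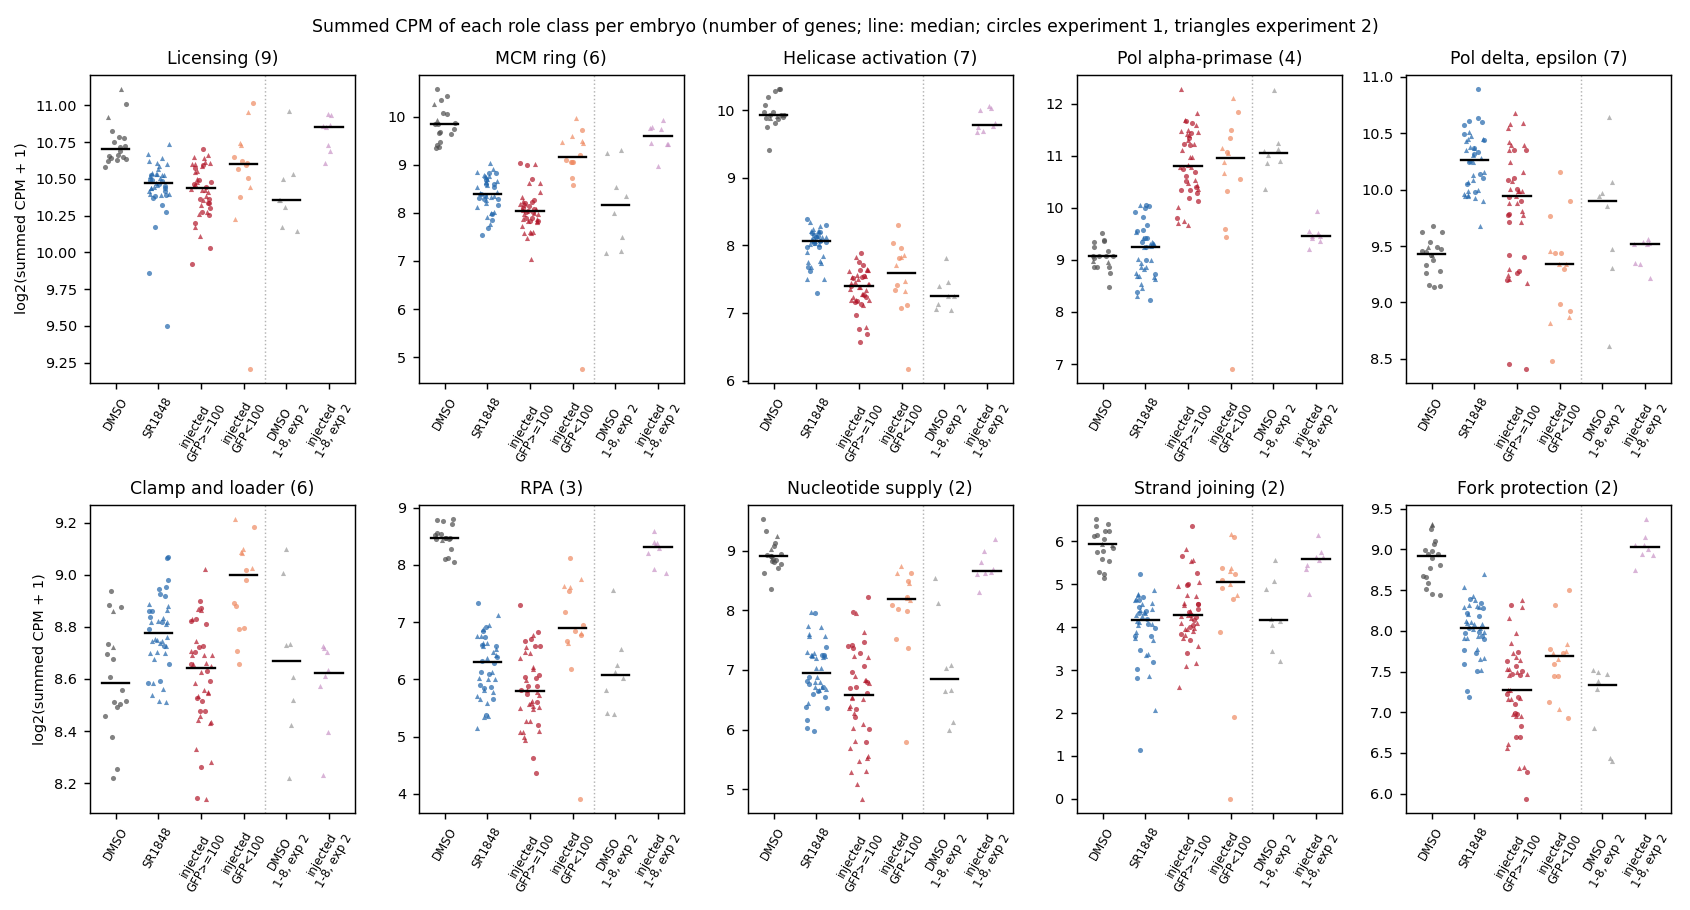
Summed CPM of the genes of each role per embryo on a log2 axis, by set of libraries, with lines at medians; circles are experiment 1 and triangles experiment 2. Helicase activation separates DMSO (679 to 1278 CPM) from SR1848 (157 to 336 CPM) and the alpha-primase sum rises to 1847 CPM in injected embryos, while libraries 1 to 8 labelled DMSO and labelled as injected sit with the other treatment.

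Summed over each role per embryo, the roles differed in how far they separated the groups. Helicase activation ran from 679 to 1278 CPM in DMSO (median 969) and from 157 to 336 CPM in SR1848 (median 268), the MCM ring from 651 to 1532 CPM (median 918) and from 185 to 523 CPM (median 335), and nucleotide supply from 327 to 741 CPM (median 479) and from 61.7 to 252 CPM (median 123), none of them overlapping. RPA sums, at 264 to 447 CPM and 34.4 to 161 CPM, did not overlap either. The sum of polymerases delta and epsilon went the other way, with 562 to 817 CPM in DMSO and 819 to 1904 CPM in SR1848. The alpha-primase sums overlapped (355 to 730 CPM and 298 to 1059 CPM). How often sums of other genes fail to overlap was not counted, and overlap was looked at in CPM only. The separation of these roles is therefore not set apart from genes at large. A sum leans on its most abundant gene: Pold3 in SR1848, Mcm6 and Rpa2 in DMSO and Pola2 in injected embryos. It does not stand for each gene of a role. Of the 7 delta and epsilon genes 3 were called higher in SR1848, 1 lower and 3 neither (37.7% and 39% of all genes higher and lower). Injected embryos had medians of 170 CPM for helicase activation, 278 CPM for the MCM ring and 114 CPM for nucleotide supply, below those of SR1848, and 1847 CPM for alpha-primase, above it. The MCM ring sum was lower there although 4 of its 6 genes were called higher against SR1848 and 1 lower (29.8% and 14.8% of all genes). The 8 libraries labelled as injected but without GFP had medians of 881 CPM for helicase activation, 778 CPM for the MCM ring and 405 CPM for nucleotide supply, within the DMSO ranges, and the 8 labelled DMSO had 152, 289 and 116 CPM, with 2125 CPM for alpha-primase.

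SR1848 with NR5A2 mRNA against DMSO shows how far injected embryos stood from solvent. Of the 48 members 27 were lower and 9 higher, against 34.6% and 42.5% of all genes tested (56.2% and 18.8% of members). Under all 5 scalings 27 members were lower and Orc5 and Pola2 higher, a count not made for all genes. The split was 2 higher and 42 lower on the maternal list (16.7% and 55.6% of all genes) and 3 and 35 on the mitochondrial mRNAs (24.6% and 46.8%). Gins3 was at -6.99 (SE 0.49, edgeR adjusted p 2e-25), Cdc45 at -3.81, Mcm6 at -3.20, Rpa2 at -3.16, Rrm1 at -3.10 and Prim2 at -2.67, and Pola2 was at 2.83 and Orc5 at 2.46. Orc6 (-0.21), Pold2 (-0.16) and Rpa1 (0.40) did not pass in this comparison. It shares its DMSO and injected embryos with the others and adds no independent evidence to them.

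**Figure D4:**
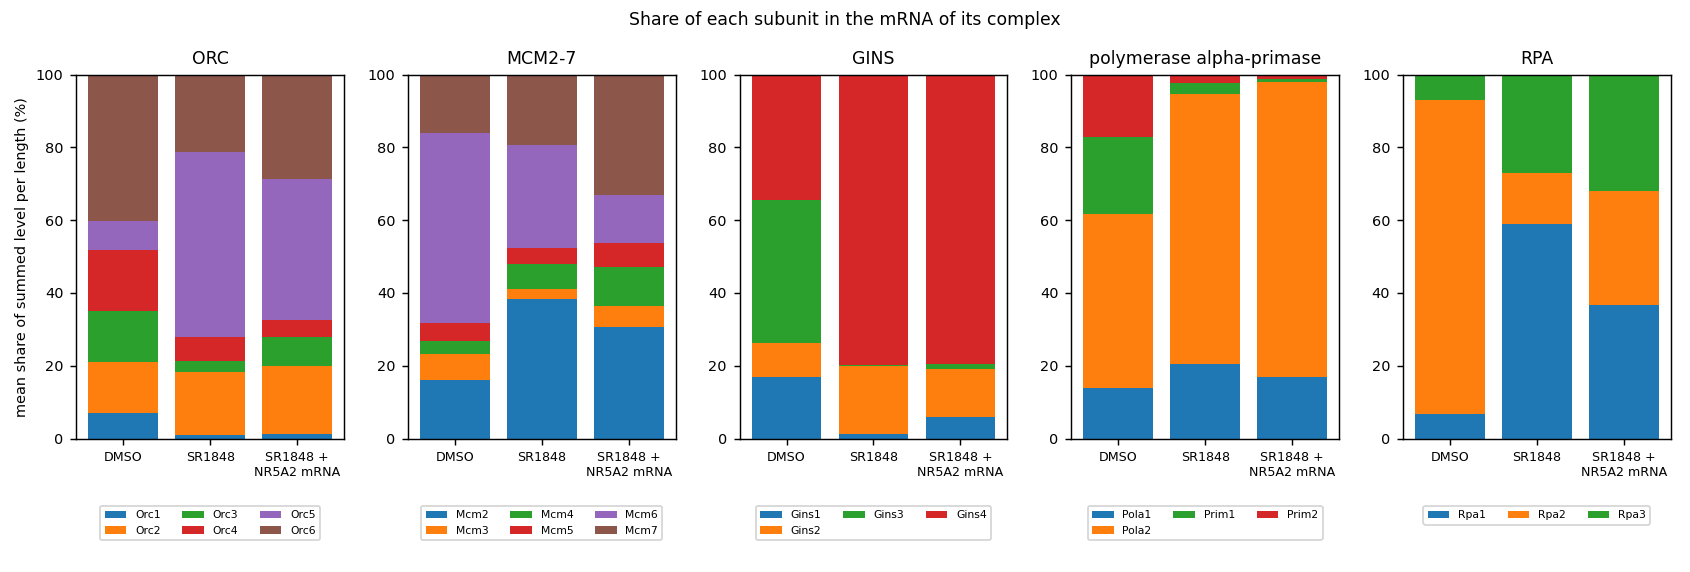
Mean share of each subunit in the summed RNA level per length of 5 complexes in DMSO, SR1848 and injected embryos, with all annotated transcripts of a gene counted, non-coding ones included. Rpa2 falls from 86.2% to 14.0% of RPA, Gins3 from 39.4% to 0.5% of GINS, and Orc5 rises from 8.1% to 51.0% of the origin recognition complex.

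Since these proteins work in complexes, levels were compared between subunits per kilobase of transcript. On that scale Gmnn had the highest median of the 48 in DMSO (898 TPM, counts per kilobase scaled to the library) and Pold1 the lowest (3.87 TPM), and Pola2 had the highest in injected embryos (1258 TPM). Within the origin recognition complex the share of Orc5 was 8.1% ± 3.6 (SD, n = 18) in DMSO, 51.0% ± 6.1 (n = 40) in SR1848 and 38.7% ± 12.3 (n = 56) in injected embryos. Rpa2 made up 86.2% ± 4.5 of RPA in DMSO and 14.0% ± 12.3 in SR1848, with 31.4% ± 19.3 in injected embryos. In GINS, Gins3 went from 39.4% ± 6.1 to 0.5% ± 0.9 and 1.4% ± 2.5, and Gins4 from 34.4% ± 6.5 to 79.7% ± 5.2 and 79.5% ± 14.2. Mcm6 held 52.1% ± 8.5 of the MCM ring, then 28.3% ± 8.5 and 13.3% ± 6.8, and Pola2 held 47.7% ± 8.5, 74.0% ± 6.5 and 81.0% ± 9.6 of polymerase alpha-primase. Each gene was summed over all its annotated transcripts, non-coding ones included, so these are not shares of coding mRNA. This bears on Orc3, Prim2 and Pola1, whose transcripts are described next. Protein was not measured.

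Transcripts of the same gene had unequal shares between groups. They are described here with no test for 5 members chosen after their values were seen. The limit is kallisto's split of reads between overlapping transcripts. Transcript levels of Orc5, Rrm1 and Tipin were measured as well and are not described. In Prim2 the coding transcript Prim2-201 had a median of 71.4 CPM in DMSO, 2.54 CPM in SR1848 and 0.811 CPM in injected embryos. The retained-intron transcript Prim2-202 had 9.71, 8.24 and 11.6 CPM, so it made 72.7% of Prim2 counts in SR1848 and 79.0% in injected embryos against 11.4% in DMSO, and the higher Prim2 total of injected embryos lies in that transcript. In Pold3, Pold3-201 went from 79.5 to 762 CPM and Pold3-209 from 105 to 9.65 CPM between DMSO and SR1848. Orc3 counts came mostly from the non-coding Orc3-205 in DMSO (86.0%) and injected embryos (81.0%) but not in SR1848 (33.8%), where Orc3-201 and Orc3-202 had 9.61 and 6.84 CPM against 4.28 and 3.31 CPM in DMSO. The lower Orc3 total of SR1848 embryos thus lies in Orc3-205. The higher Pola1 level of injected embryos lay in the processed transcript Pola1-202 (24.0 CPM in SR1848 and 83.8 CPM in injected embryos), while the coding Pola1-201 had 72.3 and 66.1 CPM. For Pola2, the coding Pola2-202 carried 96.8% of counts in DMSO and 99.4% in injected embryos.

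**Figure D5:**
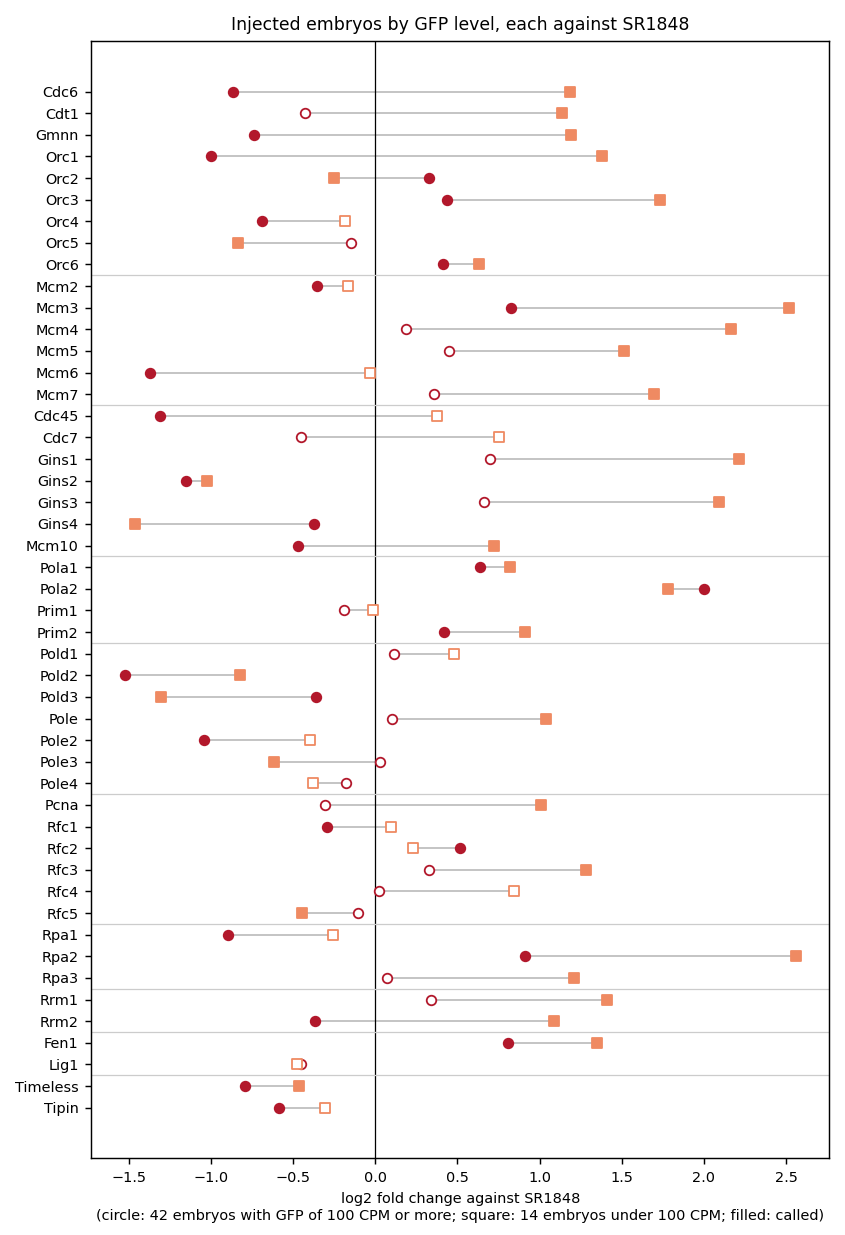
Log2 fold change against SR1848 of each member when the injected embryos are those with GFP of 100 CPM or more (circles, 42 embryos) or under 100 CPM (squares, 14 embryos); filled symbols are called. Squares lie to the right of circles for the MCM ring, Gins1, Gins3 and Rpa2, and both lie near 2 for Pola2 (2.00 and 1.78).

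Injected embryos with much and with little GFP RNA were also set against SR1848 separately. With only the 42 embryos of 100 CPM of GFP or more, 10 members were higher and 18 lower than in SR1848 (24.4% and 18.1% of all genes tested), and with only the 14 embryos under 100 CPM, a setting chosen after seeing the data, 24 were higher and 9 lower (31.1% and 19.4% of all genes). In the first fit and then the second, Mcm4 was at 0.19 and 2.17, Mcm3 at 0.82 and 2.52, Rpa2 at 0.91 and 2.56, Gins3 at 0.66 and 2.09, and Rrm2 at -0.36 and 1.09. Of the licensing genes, Cdc6 was at -0.87 and 1.19 and Gmnn at -0.74 and 1.19, with opposite signs, while Orc6 (0.41 and 0.63) and Orc3 (0.44 and 1.73) were higher in both. Mcm6 was at -1.37 and -0.03 and Cdc45 at -1.31 and 0.38, while Pola2 (2.00 and 1.78), Gins2 (-1.15 and -1.02) and Pold2 (-1.52 and -0.82) kept their direction. In these 14 embryos Nr5a2 mRNA had a median of 17.4 CPM, against 13.2 CPM in SR1848 and 3526 CPM in the other 42, and the embryos are not a group of the study. The difference between the sets was not tested.

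Between the experiments the injected against SR1848 difference changed for 1 member, Pole3 (0.331% of all genes tested were called higher in experiment 2 and 0.622% lower). Pole3 was at -0.70 (SE 0.17) in experiment 1 and 0.38 (SE 0.15) in experiment 2, a difference of 1.08 (SE 0.22, edgeR adjusted p 0.00512).

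Other genes of DNA replication and its control, 64 by a list and 63 of them tested, are the surroundings of the members. In SR1848 against DMSO 35 of 63 were lower and 15 higher (39% and 37.7% of all genes), with a median of -0.86. In injected against SR1848 embryos 17 were higher and 17 lower (29.8% and 14.8% of all genes), and in injected against DMSO embryos 39 were lower and 13 higher (34.6% and 42.5%). Tyms, which makes thymidylate, fell by 2.90 in SR1848 (medians 39.8 and 6.51 CPM) and rose by 0.79 in injected embryos. Top2a, the topoisomerase that untangles DNA, fell by 3.36 and Dtl, which directs CDT1 to degradation, by 2.64. The E2F family members E2f5 and E2f4 rose by 2.83 and 1.73, and Cul4b, a ubiquitin ligase scaffold, by 1.73. In injected embryos Ccne1, the cyclin of S-phase entry, rose by 1.63 (medians 29.8 and 96.5 CPM, against 496 CPM in DMSO) and the PCNA-binding Pclaf by 2.11, and Uhrf1 fell by 1.02, Asf1b by 0.85 and Cul4b by 0.52. Rrm2b, the alternative small subunit of ribonucleotide reductase, was 1.94 higher in injected than in DMSO embryos.

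In the authors' deposited table of injected against SR1848 embryos, which gives values per transcript, 226 of 292 member transcripts have an adjusted p, 35 of them are called higher and 34 lower. The share called over all transcripts was not counted, so these counts are not a result about the members. The authors' deposited table gives Pola2-202 a log2 fold change of 1.65, Rpa2-201 1.15, Pold2-201 -1.56 and Mcm6-201 -1.13. Many other fold changes in the authors' deposited table are near 0 with a standard error of 0.0014, so their sizes were not used.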

How the data were processed

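Single embryos were profiled by SmartSeq2, 1 library each. The authors deposited kallisto estimated counts per transcript, 26.3% of them not whole, for 119358 entries; per the submitters' processing notes the tools were bcl2fastq, Trim Galore 0.6.2, kallisto 0.46.1, R 3.5.1 and DESeq2 1.32.0, with builds mm10 and hg19 (for hg19, no role is stated there). The authors also deposited a transcript table with a mean signal (baseMean), log2 fold changes and adjusted p-values from DESeq2. Here estimated counts were summed to 36097 genes through GENCODE M21 names and rounded; 1779 unpaired entries (0.656% of counts) and 5 kept apart (0.158%) were left out of the genes. Totals were 100883 to 9317720. In R 4.3.3, edgeR 4.0.16 (TMM, quasi-likelihood, condition plus experiment, Benjamini-Hochberg over 15107 genes passing filterByExpr) gave the tests, with SE as the absolute log2 fold change over the square root of F. Left out were 7 libraries under 1 in 5 of the median total or 1 in 2 of the median genes detected, and 16 whose Nr5a2 and GFP go against their labels. The fit was tested on simulated data. Values per embryo are given for the member of each role with the smallest p in each comparison with SR1848; other members appear with fold changes, and of other replication genes the 3 with the smallest p per direction. Alternatives covered scaling, filter, DESeq2 1.42.0, libraries, experiments and replicate block. Members and lists were chosen with earlier results of these data known.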

Additional observations from a re-analysis of the deposited data

Results flagged for a closer look

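Among the 8 libraries labelled DMSO of experiment 2 that go against their labels, 1 library stood apart with the highest summed licensing level, 2000 CPM, and 1 with the highest summed polymerase alpha-primase level, 4910 CPM. Among the 8 labelled as injected that go against their labels, 1 stood apart with an alpha-primase sum of 974 CPM. In all 22 sums, those of each role and of all members in each set of 8 libraries, were looked at in this way. Chance alone flags about 1 in 20, and sums from the same libraries are not independent.

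Pole3 differed between the experiments in its injected against SR1848 difference by 1.08 on the log2 scale.

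In the 7 low libraries, which the main fits leave out, Prim2 had a median of 3406 CPM, against at most 118 CPM in any DMSO embryo of those fits. Nearly all of it was in the retained-intron transcript Prim2-202 (699 to 7792 CPM). The coding Prim2-201 was at 0 to 1.63 CPM in the low libraries. Prim2 was the only member whose median in these libraries was above the highest DMSO embryo.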

How the results depend on the processing

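Counts below are members higher or lower, and log2 fold changes follow gene names; the cause of each change was not tested. The 2 settings without injected libraries of 100 CPM of GFP or more and without replicate 2 of the injected embryos of experiment 1 were chosen after seeing the data. Of single-member values, 772 of 864 kept direction and side of the threshold in SR1848 against DMSO, 687 of 864 in injected against SR1848 and 266 of 306 in injected against DMSO embryos, and 74 more changed sign with no call in either setting.

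Scaled to the maternal list, SR1848 against DMSO gave 1 higher and 46 lower, injected against SR1848 33 and 2, and injected against DMSO 2 and 42. The difference between experiments gave 3 higher (164 of all 15107 genes). SR1848 against DMSO reversed for Orc2 -1.30, Gins2 -1.38, Gins4 -1.27, Rfc1 -1.76, Rfc2 -1.32, Rfc5 -0.82, Pola1 -1.52, Pola2 -1.05, Pold2 -0.89, Pole3 -1.06, Rpa1 -0.85, Lig1 -1.66 and Timeless -0.75. Injected against SR1848 reversed for Mcm10 0.54, Orc1 0.69, Orc4 0.05, Orc5 0.27, Gins4 0.02, Cdc6 0.66, Gmnn 0.68, Rfc1 0.36, Rfc5 0.43, Pole3 0.47, Pole4 0.33, Prim1 0.46 and Tipin 0.03, and injected against DMSO for Rfc2 -0.19, Rfc5 -0.40, Rpa1 -0.91 and Timeless -0.86. Scaled to mitochondrial mRNAs, injected against SR1848 gave 3 higher and 26 lower and injected against DMSO 3 higher. The difference between experiments gave 4 higher (215 of all 15107 genes). On that scaling injected against SR1848 reversed for Orc2 -0.36, Orc6 -0.13, Pcna -0.48, Rfc2 -0.15, Prim2 -0.04 and Rrm2 -0.44, and injected against DMSO for Timeless -0.39. Relative log expression scaling and DESeq2 each gave 6 higher in SR1848 against DMSO (4353 and 4449 of all 15107 genes). Each also gave 3 higher between experiments (63 and 142 genes), and Rfc1 -0.32 and Pola1 -0.14.

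Experiment 2 alone gave 8 higher and 23 lower in SR1848 against DMSO (3635 and 3835 of all 18335 genes), with Gins2 -0.02. In injected against SR1848 it gave 10 higher and 13 lower (4232 and 2185 genes), with Pole3 0.32. With all libraries as labelled, Pola2 was -0.71 in SR1848 against DMSO, Cdc45 0.38 in injected against SR1848 and Prim2 0.31 in injected against DMSO. In that setting 2 members were higher between experiments (621 of all 14507 genes) and the DMSO alpha-primase median was 648 CPM. With the 16 libraries, Pola1 was -0.07, Pola2 -0.73 and Cdc45 0.38, with 0 higher between experiments by edgeR (75 of all 14674 genes). With the low libraries, 11 were higher in injected against SR1848 (3252 of all 14893 genes), Rrm1 was -0.45 and 2 were higher between experiments (461 genes). Without injected libraries under 100 CPM of GFP, injected against SR1848 gave 10 higher, 18 lower and Rrm2 -0.36. Between experiments 3 were then higher and 2 lower (163 and 185 of all 14717 genes). Without injected libraries of 100 CPM or more, 14 were higher in injected against DMSO (5162 of all 14149 genes) and 0 between experiments (1 gene). Injected against SR1848 then reversed for Mcm10 0.72, Orc1 1.38, Orc2 -0.25, Cdc6 1.19, Cdc45 0.38 and Gmnn 1.19. No filter on low counts gave 2 higher between experiments (433 of all 30674 genes). Leaving out single libraries gave 1 to 2 higher between experiments, 2 without replicate 2 of the injected embryos of experiment 1 (85 of all 15100 genes).

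Replicate numbers were not taken to pair embryos, since not every pair correlated above 0.1: 0 of 13 SR1848 and DMSO pairs and 5 of 16 injected and SR1848 pairs did in experiment 1, and 0 of 2 and 7 of 16 in experiment 2, where r ran from -0.479 to 0.545 for the latter. With the replicate number as a block, 6 members were higher and 15 lower in injected against SR1848, against 2965 and 1914 of all 15107 genes.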
